A study of Homo sapiens with 2 samples.

Results

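Of the 6754 SRSF1 crosslink sites listed for H1299 cells, 426 (6.31%) lay on chromosome 19 of the hg19 build. They were taken as every site whose chromosome is 19, with no use of tag counts. SRSF1 is a splicing factor of the SR family that binds RNA, and H1299 is an established cell line from a human lung carcinoma of the non-small cell type. The study's 2 samples are replicates 1 and 2 of 1 group, SRSF1 HITS-CLIP of H1299 cells crosslinked with ultraviolet light, with no genotype, added agent or time course in the labels and no control library among the samples analysed here. The authors deposited 1 list with no column for either replicate, so the values given are those of both replicates together and carry no replicate spread. Intervals and tests treat sites, loci or tag clusters as independent units, which neighbours in 1 locus may not be, and cover counting error at most.

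Each listed site is one of 2 kinds. At a truncation site, complementary DNAs end where a peptide left on the RNA stopped the reverse transcriptase, and its value is the number of truncated tags (sequenced RNA fragments) beside the number that each position of its cluster of tags would hold on average. This second number is called the expected number. At a mutation site the enzyme read through with an error, and its values are the tags that cover it and the tags mutated there. A tag cluster is a stretch of overlapping tags. A locus here is a run of sites on the same strand, each at most 1000 nt from the next.

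Human chromosome 19 is known for its high density of genes and for its tandem families of C2H2 zinc-finger genes, many of which encode KRAB-domain repressors that bind DNA and silence transposable elements. SR proteins such as SRSF1 bind exonic sequence in transcripts, where they help recruit the splicing machinery, and SRSF1 also takes part in mRNA export and translation. By gene symbol alone, 264 of the 1472 protein-coding genes that GENCODE release 29 places on chromosome 19 (17.9%) carry a zinc-finger family name, against 1.64% of the coding genes on all other sequences, and 104 of the 264 stand in 8 runs of 10 or more direct neighbours. That annotation is of another build (GRCh38), so no site was assigned to a gene, an exon or an intron, and no sequence was read. The stretches contrasted below are the intervals at 19.5 to 24.6 Mb (stretch 1) and 52.3 to 58.6 Mb (stretch 2), which are called zinc-finger stretches because they were given under that name. Their gene content was not checked against an hg19 annotation.

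The sites of chromosome 19 formed 338 loci, 6.51% of the loci in the list. Truncation sites made up 296 of the 426 sites (69.5%, exact Clopper-Pearson 95% interval 64.9 to 73.8%) and mutation sites the other 130. On all other sequences the truncation share was 70.1% (4435 of 6328 sites), and the balance of the kinds on chromosome 19 did not differ from it beyond counting error (odds ratio 0.97, 95% interval 0.78 to 1.21, Fisher's exact test, two-sided, Benjamini-Hochberg adjusted p = 0.800 over the 6 tests reported here). The plus strand held 223 sites in 178 loci and the minus strand 203 sites in 160 loci. A site stood alone in 292 loci, 41 loci held 2 to 4 sites and 5 held 5 or more, so that 13.6% held more than 1. Most loci were of a single kind, with 215 of truncation sites alone, 96 of mutation sites alone and 27 of both.

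For its length, chromosome 19 carried more loci than any other autosome. Between its first and last site there were 5.75 loci per Mb (exact Poisson interval 5.16 to 6.40), the highest of 22 autosomes, against 3.85 on chromosome 17, 3.45 on chromosome 22 and 2.65 on chromosome 20. Chromosomes 17 and 22 are also gene-dense, and chromosome 20 is of like size. Tag clusters were dense there as well. The names of truncation sites carry the number of their cluster along the strand, and these numbers never decreased along chromosome 19, so the highest number on each strand gives how many clusters had been numbered up to the last site. That check was made on chromosome 19 alone, and the other autosomes were read in the same way. The highest numbers sum to 34251 on chromosome 19, or 583 per Mb, against 414 on chromosome 17, 443 on chromosome 22 and 269 on chromosome 20. Counted per cluster, chromosome 19 lay within the range of the others. It had 9.87 loci per 1000 numbered clusters, the eighth highest of 22 autosomes, against 9.86 on chromosome 20, 9.30 on chromosome 17 and 7.79 on chromosome 22. A truncation site lay in 282 of its clusters (0.823%, 0.730 to 0.925%), against 0.808% over the other autosomes (odds ratio 1.02, 0.90 to 1.15, Fisher's exact test, adjusted p = 0.800).

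Along the chromosome the loci were unevenly spread over the 12 bins of 5 Mb. The bin at 0 to 5 Mb held 54 loci (10.8 per Mb, exact Poisson interval 8.11 to 14.1) and the bin at 10 to 15 Mb held 53 (10.6 per Mb, 7.94 to 13.9). The intervals of these bins overlap, as they do with the 46 loci at 35 to 40 Mb (9.2 per Mb, 6.74 to 12.3) and the 40 loci at 45 to 50 Mb (8.0 per Mb, 5.72 to 10.9). The middle of the chromosome held few loci: 9 lay at 20 to 25 Mb, 1 at 25 to 30 Mb and 7 at 30 to 35 Mb. In sites these bins held 28, 1 and 8, and 20 of the 28 stood in 2 loci. Between the early peaks, the bin at 5 to 10 Mb held 24 loci (4.8 per Mb, 3.08 to 7.14), and after them the bin at 15 to 20 Mb held 30. Bins 9 and 11, at 40 to 45 and 50 to 55 Mb, held 28 and 33 loci, and the last bin held 13. The widest interval without any site on either strand ran for 4.81 Mb from position 24364328 to 29173657, and the next for 2.87 Mb from 30204910 to 33072157. About 328 and 166 numbered tag clusters were counted in these intervals, in that order. The centromere lies in this part of the chromosome, and centromeric sequence is largely missing from the hg19 assembly. Its part in the empty intervals was not tested.

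**Figure D1:**
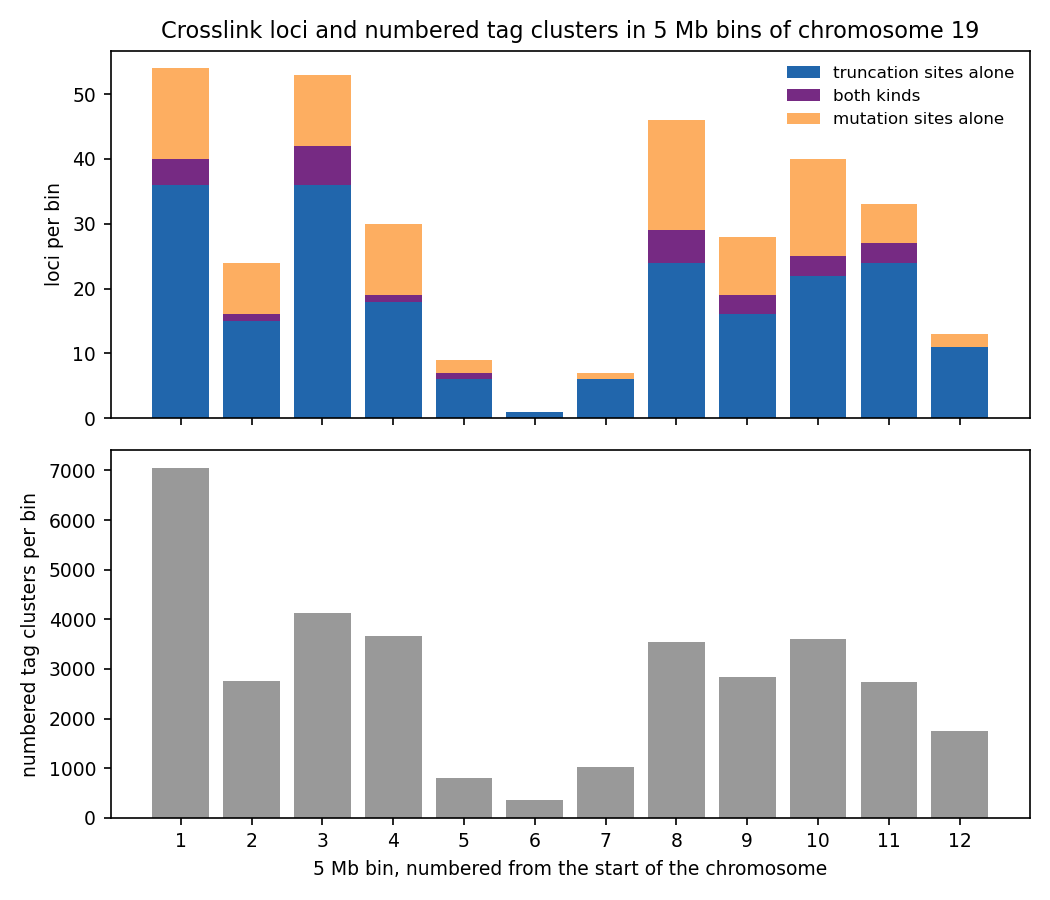
Loci per 5 Mb bin of chromosome 19 (upper bars, coloured by whether a locus holds truncation sites, mutation sites or both) and the number of tag clusters numbered in the bin (lower bars, read by a straight line between the flanking truncation sites). Bins 1 and 3 hold 54 and 53 loci, bins 5 to 7 hold 9, 1 and 7, and bin 1 has 7050 clusters against 4131 in bin 3.

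Bins rich in loci were mostly rich in tag clusters, and bin 1 held the most of both. Cluster numbers were read at the edges of a bin by a straight line between the flanking truncation sites of each strand. The bin at 0 to 5 Mb held about 7050 clusters, and a truncation site was listed in 0.596% of them (exact interval 0.430 to 0.804%). The bin at 10 to 15 Mb held about 4131 clusters, and 1.23% of them (0.921 to 1.62%) had a truncation site. These 2 bins with nearly equal numbers of loci therefore differed in clusters, and their intervals do not overlap, a difference that was not tested. The share was 0.519% at 15 to 20 Mb (0.313 to 0.809%) and 2.48% at 20 to 25 Mb (1.52 to 3.81%), the highest of the 12 bins, from about 806 clusters. That place rests on 2 loci described below, which hold 15 of its 20 clusters with a truncation site, and without them the share was 0.620% (0.202 to 1.44%). No locus was left out of the other bins. The place of the bin at 20 to 25 Mb also rests on the straight-line reading. The intervals take the cluster numbers so read as exact, and no bounds are given for the bins. For stretch 1, which overlaps this bin, the flanking sites allow 835 to 2318 clusters. Its share was 2.75% with the fewest and 0.992% with the most, the latter below the 1.23% read at 10 to 15 Mb. The truncation share of sites ran from 61.3% (19 of 31 sites, 42.2 to 78.2%) at 15 to 20 Mb to 85.7% (24 of 28, 67.3 to 96.0%) at 20 to 25 Mb among bins with over 20 sites, with overlapping intervals.

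The zinc-finger stretches carried fewer loci for their length than the rest of the chromosome. Over 11.4 Mb they held 57 sites in 36 loci, or 3.16 loci per Mb (exact Poisson interval 2.21 to 4.37), against 302 loci in the other 47.3 Mb, or 6.38 per Mb (5.68 to 7.14). The ratio was 0.495 (0.340 to 0.701, exact conditional binomial test, two-sided, adjusted p = 0.000108). Both stretches were sparse, with 14 loci in the 5.1 Mb of stretch 1 (2.75 per Mb, 1.50 to 4.61) and 22 loci in the 6.3 Mb of stretch 2 (3.49 per Mb, 2.19 to 5.29). Among sites above the median tag count of their kind, with 15 loci in the stretches and 111 in the rest, the ratio was 0.561 (0.304 to 0.966). It no longer passed the exact conditional binomial test after adjustment (unadjusted p = 0.0321, adjusted p = 0.125).

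Tag clusters were sparse in the same stretches. About 3784 of the chromosome's clusters (11.0%) lay in them, or 332 per Mb, against 644 per Mb in the rest, a ratio of 0.516 beside the ratio of 0.495 for loci. Per 1000 numbered clusters the stretches had 9.51 loci and the rest 9.91. Stretch 1 had 12.5 and stretch 2 had 8.27. With clusters in place of Mb the ratio of loci was 0.960 (0.660 to 1.36, exact conditional binomial test, adjusted p = 0.931). With these cluster numbers, the difference in loci per Mb was thus not detectable per cluster. The flanking sites bound the clusters in stretch 1 between 835 and 2318 and those in stretch 2 between 2339 and 2874, and between these bounds the ratio ran from 1.17 down to 0.667 (exact conditional binomial test, adjusted p = 0.795 and 0.112). With the most clusters possible in the stretches, the interval of 0.459 to 0.945 left out 1 (exact conditional binomial test, unadjusted p = 0.0187).

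**Figure D2:**
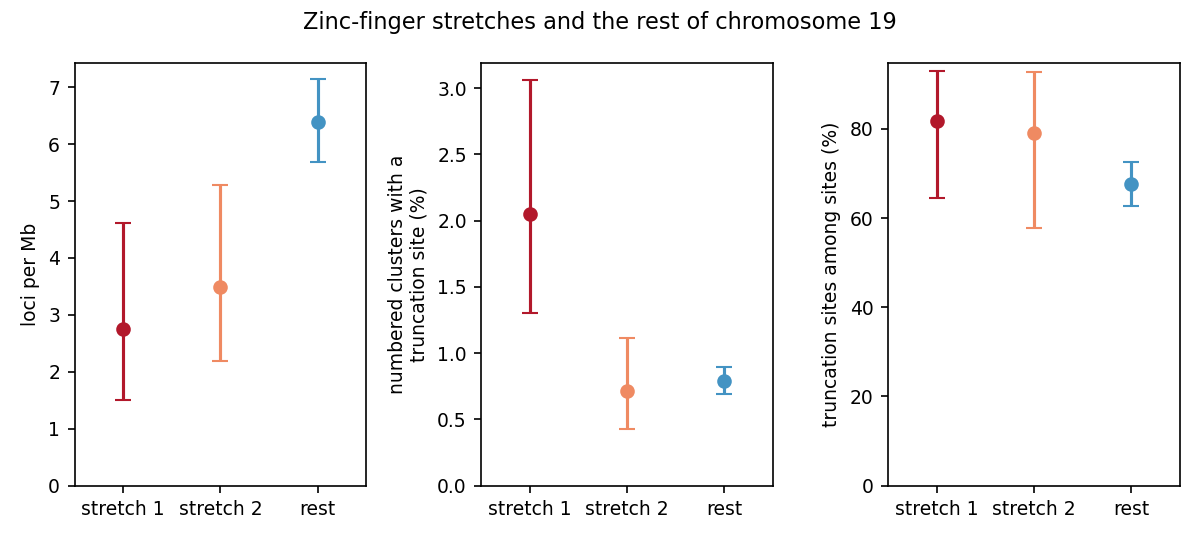
Loci per Mb, the percentage of numbered tag clusters with a truncation site, and the percentage of truncation sites among sites, in zinc-finger stretch 1, stretch 2 and the rest of chromosome 19, with exact 95% intervals as bars. Loci per Mb are 2.75, 3.49 and 6.38, and stretch 1 has 2.05% of its clusters with a truncation site against 0.714% in stretch 2 and 0.788% in the rest.

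The stretches differed from each other in how sites were gathered. Stretch 1 held 33 sites, 20 of them in 2 loci, and stretch 2 held 24 sites in 22 loci, of which 21 had 1 site. A truncation site lay in 23 of the about 1123 clusters of stretch 1 (2.05%, 1.30 to 3.06%) and in 19 of about 2661 in stretch 2 (0.714%, 0.430 to 1.11%), against 0.788% in the rest. For both stretches together the share was 1.11% (odds ratio 1.41, 0.99 to 1.97, Fisher's exact test, adjusted p = 0.125), which did not pass. It passed with the fewest clusters that can lie in the stretches (odds ratio 1.72, Fisher's exact test, adjusted p = 0.00769), and turned to 0.979 with the most and to 0.905 without the 2 loci. Moving the stretch edges inward by 0.5 Mb puts the 11-site locus described below, with its 10 clusters that hold a truncation site, in the rest. With edges so moved the odds ratio was 1.06 (0.68 to 1.60), and with edges moved outward 1.37 (0.99 to 1.86). Neither passed (Fisher's exact test, adjusted p = 0.800 and 0.125). Stretch 1 alone, a split chosen after seeing the data, had an odds ratio of 2.63 against the rest (1.63 to 4.07, Fisher's exact test, adjusted p = 0.000222). That value rests on 2 loci, which hold 15 of the 23 clusters, and on the reading of cluster numbers. The test takes clusters as independent, and its adjustment does not cover the choice of the split. Without those loci the share in stretch 1 was 8 of about 1123 clusters (0.712%, 0.308 to 1.40%). A lower share follows from leaving out the largest loci, and the rest (0.788%) kept its own 3 loci of 5 or more sites. With all its loci, the share was 0.992% with the most clusters that can lie there (odds ratio 1.20, Fisher's exact test, unadjusted p = 0.406) and 2.75% with the fewest (odds ratio 3.64, unadjusted p = 5.33e-07).

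The locus with the most sites on the chromosome lay at the far end of stretch 1, on the minus strand from 24182416 to 24185500. It held 11 truncation sites and no mutation site in 3085 nt. From its 5′ end on the strand, the sites had 11, 10, 11, 16, 6, 5, 10, 9, 16, 11 and 4 truncated tags, so high and low counts were mixed along it and 2 sites shared the highest. They were spaced 34 to 684 nt apart (median 318). The expected number per position ran from 0.12 to 1.2, and its highest value, 1.2, is also the highest of any truncation site on the chromosome. The median ratio of observed to expected tags was 25.6 (11.5 to 37.0), against 35.7 over all truncation sites of chromosome 19. Its sites fell in 10 of 17 clusters numbered in a row, and its 109 truncated tags were 5.06% of those listed on the chromosome.

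The second locus lay on the same strand from 23506081 to 23507004, with 7 truncation and 2 mutation sites in 924 nt. Its truncation sites were even and low, with 6, 5, 6, 6, 6, 10 and 6 tags from the 5′ end, each expected at 0.14 to 0.2 per position. The ratio of observed to expected tags was accordingly higher than in the 11-site locus, with a median of 35.7 (30 to 55.6). The mutation site at its 3′ end, 23506081 to 23506101, had 3 of 24 covering tags mutated (12.5%) and lay 18 nt 3′ of the last truncation site. The other had 2 of 9. The sites fell in 5 of 9 clusters numbered in a row. Whether the tags of these 2 loci arose there or at similar sequences elsewhere is not known, since how reads that match several places were handled is not given in the sources used here.

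**Figure D3:**
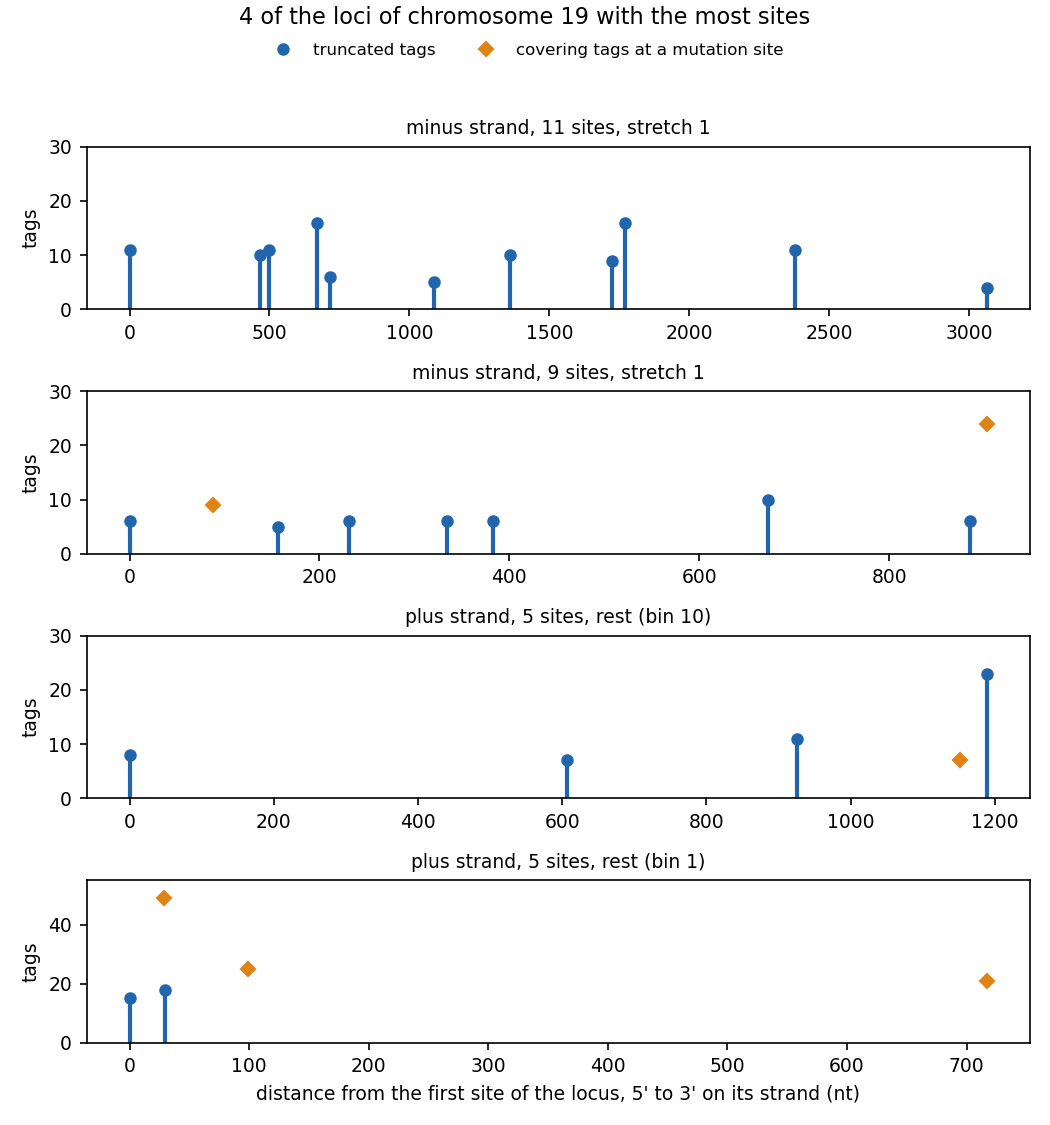
Truncated tags at truncation sites (stems) and covering tags at mutation sites (diamonds) against distance from the first site of the locus in nt, for 4 of the loci of chromosome 19 with the most sites (the lowest panel has a taller tag axis). The 11-site locus spreads 4 to 16 truncated tags over 3085 nt, while the locus of bin 10 has 1 site of 23 tags at its 3′ end.

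The strand balance of the stretches moved with these loci. Of the 57 sites in the stretches 19 were on the plus strand (33.3%, 21.4 to 47.1%), against 55.3% (50.1 to 60.4%) in the rest, but all 20 sites of the 2 loci are on the minus strand, and without them the share was 51.4% (34.4 to 68.1%). Truncation sites made up 46 of the 57 sites (80.7%, 68.1 to 90.0%), against 250 of 369 (67.8%, 62.7 to 72.5%) in the rest. This difference did not pass (odds ratio 1.99, 0.97 to 4.41, Fisher's exact test, adjusted p = 0.125), and the share was 79.2% in stretch 2 alone and 75.7% in both stretches without the 2 loci. By the same exact test it passed with stretch edges moved outward by 0.5 Mb (odds ratio 2.29, adjusted p = 0.0422) and without mutation sites of 2 covering tags (2.94, adjusted p = 0.0321). It did not pass with edges moved inward by 0.5 Mb, which put the 11-site locus in the rest (1.65, 0.71 to 4.31, Fisher's exact test, adjusted p = 0.529). Nor did it among sites above the median of their kind (1.84, Fisher's exact test, adjusted p = 0.654). With loci as units it did not (1.73, Fisher's exact test, adjusted p = 0.489). More than 1 site was held by 4 of 36 loci in the stretches (11.1%, 3.11 to 26.1%) and 42 of 302 in the rest (13.9%, 10.2 to 18.3%; odds ratio 0.77, 0.19 to 2.35, Fisher's exact test, adjusted p = 0.800).

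Outside its 2 large loci, stretch 1 held a few strong single sites. The highest was on the plus strand at 23288972 to 23288992, with 20 truncated tags against 0.46 expected and a ratio of 43.5 and stood alone, with no other site between 22020707 and 23506081. A site on the minus strand at 22020687 to 22020707 had 13 tags against 0.3 expected. A pair on the minus strand at 21469610 to 21469725 had 12 and 10 tags, 95 nt apart in 1 cluster. In the other direction, 3 of the 6 mutation sites of stretch 1 were covered by 2 tags, both mutated. The interval of 1.27 Mb before the 20-tag site was the longest without a site inside stretch 1.

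Stretch 2 held mostly single sites, of about the same height as in the rest. Its 19 truncation sites had a median of 6 tags (quartiles 5 and 7, range 4 to 14), and 3 of them had 10 or more. The highest, 14 tags against 0.43 expected, lay on the plus strand at 54489324 to 54489344. It belonged to the one locus of stretch 2 with more than 1 site, at 54489216 to 54489344, where 2 mutation sites 4 nt apart had 3 of 20 and 5 of 18 covering tags mutated, 108 and 104 nt 5′ of the truncation site. The next were single sites of 11 tags on the minus strand at 55743542 to 55743562 and of 10 tags on the plus strand at 58378660 to 58378680. The longest empty interval of stretch 2 was 0.913 Mb, between 56874707 and 57787655.

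The sites next to the edges of the stretches had 5 to 10 truncated tags where they were truncation sites. Just before stretch 1 lay a truncation site of 7 tags at 19247788 to 19247808, and the first inside had 5 tags at 19627104 to 19627124. Its last site, with 5 tags at 24364308 to 24364328, was followed by the widest empty interval and a site of 7 tags at 29173657 to 29173677. Before stretch 2 a truncation site had 5 tags at 52197241 to 52197261, and the first site inside was a mutation site with 2 of 2 tags mutated at 52552036 to 52552056. After its last site, of 10 tags, came a mutation site with 2 of 2 tags mutated at 58754923 to 58754943.

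Of the 6 highest truncation sites of chromosome 19, 5 lay outside the stretches, as did 84.5% of all its truncation sites, and all 6 were on the plus strand. The highest had 23 truncated tags against 0.73 expected, at 49994444 to 49994464. It closed a locus of 5 sites from 49993255, whose other truncation sites had 8, 7 and 11 tags from the 5′ end. A locus of 168 nt at 36066535 to 36066702 held sites of 21, 9 and 18 tags, so 2 of the 6 highest lay 147 nt apart. A site at 13051383 to 13051403 had 20 tags against 0.85 expected, equal to the 20 tags of the highest site in stretch 1 but with a higher expected number. A site at 4422678 to 4422698 had 18 tags and lay 30 nt 3′ of one with 15 in the same cluster. The highest site of chromosome 19 was in the range of the autosomes, of which 14 had a higher maximum, 2 an equal one and 5 a lower one.

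The median of all 296 truncation sites was 6 tags (range 4 to 23, quartiles 5 and 9), with 0.175 expected at the median. The median was 7 (quartiles 5.5 and 11) in stretch 1, 6 in stretch 2 and 6 (5 and 8.75) in the rest. Sites of 10 or more tags were 12 of 27 in stretch 1 (44.4%, 25.5 to 64.7%), 3 of 19 in stretch 2 (15.8%, 3.38 to 39.6%) and 48 of 250 in the rest (19.2%, 14.5 to 24.6%). The 2 large loci gave 8 of those 12, and among the 9 other truncation sites of stretch 1 the share was again 44.4%, with an interval of 13.7 to 78.8%. The expected number was a median of 0.2 in stretch 1, 0.16 in stretch 2 and 0.17 in the rest, and the ratio of observed to expected tags 31.6, 38.9 and 35.7. These medians carry no test. The lowest truncated count in the list is 4, so low expected numbers come with high ratios by selection.

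**Figure D4:**
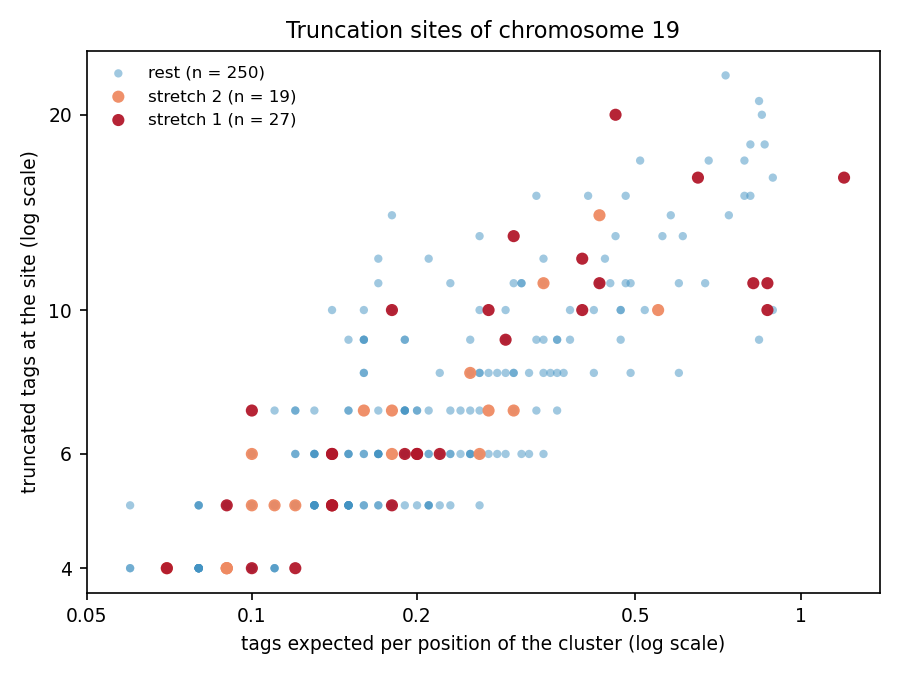
Truncated tags at each of the 296 truncation sites of chromosome 19 against the number expected per position of its cluster, both on log scales, coloured by stretch. Sites of stretch 1 reach the highest expected number, 1.2, and the sites of stretch 2 lie between 4 and 14 tags inside the cloud of the rest.

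Truncation sites rarely shared a cluster on this chromosome. Of 282 clusters with a truncation site, 268 held 1 and 14 held 2, and none held 3 or more. The distance between sites that shared a cluster had a median of 49.5 nt (range 30 to 119, quartiles 35.2 and 78.8). Neighbouring loci on either strand were a median of 58.9 kb apart (quartiles 18.0 and 177), and 224 of the 337 neighbouring pairs were on the same strand. No locus lay within 1000 nt of a locus on the opposite strand.

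Mutation sites on chromosome 19 were covered by a median of 4 tags (quartiles 3 and 7, range 2 to 49), against 5 on all other sequences, 5 on chromosome 17, 4 on chromosome 22 and 3 on chromosome 20. Of the 130, 28 (21.5%) rested on 2 tags, both mutated, against 22.9% elsewhere. The deepest was at 4422677 to 4422697 on the plus strand, with 4 of 49 tags mutated (8.16%), 1 nt 5′ of the truncation site of 18 tags described above. Its locus, 4422648 to 4423385, held 2 more mutation sites, with 3 of 25 and 3 of 21 tags mutated, 99 and 717 nt 3′ of its first site. The second deepest lay on the minus strand at 13504328 to 13504348, with 10 of 30 tags mutated (33.3%), 22 nt 3′ of a truncation site of 8 tags. In the same locus, 13503500 to 13504370, a further mutation site had 5 of 25 tags mutated (20%), 27 nt 3′ of a truncation site of 9. The sixth deepest, with 4 of 22 tags mutated (18.2%), lay at 14677043 to 14677063 on the minus strand. Of the 6 deepest, 5 lay outside the stretches, as did 91.5% of all mutation sites of the chromosome, and 1 at the end of the 9-site locus of stretch 1.

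Few mutation sites lay beside a truncation site. Within 50 nt of one on the same strand were 12 of 130 (9.23%, 4.86 to 15.6%), against 320 of 1893 (16.9%, 15.2 to 18.7%) on all other sequences, a difference that was not tested. The other sequences include a locus of 85 sites on chromosome 11, against at most 11 on chromosome 19, and the part of such loci was not tested. Of the 12 mutation sites, 8 lay 3′ and 4 lay 5′ of the nearest truncation site, and 1 lay in a zinc-finger stretch, which together hold 11 mutation sites. The 12 were covered by a median of 16 tags (quartiles 12.8 and 24.2) and the other 118 by a median of 4 (3 and 6). Every listed truncation site has 4 or more truncated tags, and the part of this in the difference in depth was not tested.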

How the data were processed

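SRSF1 HITS-CLIP was measured in 2 replicate samples of 1 group, and the authors deposited 1 combined list. Per the submitters' processing notes, tools included cutadapt (no version given) and BWA 0.7, and the build was hg19. The sources used here do not give the settings, the treatment of PCR duplicates or the step that joined the replicates. The deposited counts are whole tags per site, truncated or mutated, and not normalized. The deposited names, another text field, carry expected and covering tags, P and cluster number. The list is named after the CTK toolkit, and the meaning of its name fields follows that toolkit. Total tags per library are unknown.

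Sites were placed by midpoint and positions are 1-based. Lengths run from first to last site. Tests (Python 3.11.15, scipy 1.17.1) were Fisher's exact test and an exact conditional binomial test of rates, two-sided, with Benjamini-Hochberg adjustment over 6 tests. Each alternative was adjusted with the other 5 at their reported p. The counting was tested on simulated data. Named sites are the 6 truncation sites with most tags, the 6 deepest mutation sites, the 6 loci with most sites, and in each stretch the 3 loci with most sites and the highest truncation site; other sites (the edges, the 13-tag site and the empty intervals) were chosen after their values were seen. The chromosome, stretches and tests were chosen with earlier results of these data known. Sequences were not used, since no hg19 genome was at hand.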

Additional observations from a re-analysis of the deposited data

How the results depend on the processing

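No paired analysis was possible because both replicates belong to 1 group and were deposited as a single combined list, and for the same reason no replicate could be left out. Of 45 alternatives for the 6 tests, 31 kept the direction and the side of the threshold. Those that leave out the largest loci, take 1 stretch, bound the clusters or divide by clusters were chosen after seeing the data. The cause of each change below was not tested. For loci per Mb, the ratio of 0.495 kept its call with other locus gaps, stretch edges and lengths (0.437 to 0.546). It was 0.561 (0.304 to 0.966) for sites above the median of their kind, which did not pass after adjustment. With clusters as the denominator it was 0.960, 0.667 with the most clusters possible in the stretches and 1.17 with the fewest. None of these passed after adjustment, though the interval for 0.667 (0.459 to 0.945) left out 1. The odds ratio for truncation-bearing clusters, 1.41, was 2.63 for stretch 1 alone and 1.72 with the fewest clusters possible, both past the threshold. It turned to 0.906 for stretch 2 alone, 0.905 without the 2 loci with most sites and 0.979 with the most clusters possible. With edges inward, which put the 11-site locus in the rest, it was 1.06, and with edges outward 1.37, without passing. The odds ratio for the truncation share, 1.99, passed with edges outward (2.29) and without mutation sites of 2 covering tags (2.94). It did not pass with edges inward (1.65) or for sites above the median of their kind (1.84). The odds ratio for loci of more than 1 site, 0.774, turned to 2.00 for sites above the median of their kind and to 1.69 for stretch 1 alone, without passing. Chromosome 19 against other autosomes, 1.02 per cluster, turned to 0.978 for truncation sites of 6 or more tags, without passing. The densest bin moved from 0 to 5 Mb to 10 to 15 Mb with a locus gap of 10000 nt (8.6 loci per Mb), and the densest 2 Mb, at 2 to 4 Mb, had 14 loci per Mb. Mutation sites rest on a median of 4 tags, and the total tags per library are unknown, so the effect of depth was not tested.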
